A study of Danio rerio with 12 samples.

Results

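Whole zebrafish (Danio rerio) kept for 48 h with a mixture of diclofenac and B[a]P (the group Mixture, 3 libraries) were set against whole zebrafish kept for 48 h with B[a]P alone (3 libraries). These are 6 of the 12 libraries of the series, and the comparison asks what diclofenac added when B[a]P was already present. The other 6 libraries, 3 of Diclofenac and 3 of Control at the same time, serve only for the diclofenac effect without B[a]P. The labels give treatment, time and the tissue "whole body", whereas they name no strain, life stage, dose, vehicle or number of animals per library. The comparison assumes that the mixture held B[a]P at the dose used alone. Setting it beside diclofenac alone assumes likewise that the mixture held diclofenac at the dose used alone.

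B[a]P (benzo[a]pyrene) is a polycyclic aromatic hydrocarbon of combustion products. It binds the Ah receptor, a ligand-activated transcription factor that switches on cytochrome P450 genes of family 1, whose enzymes oxidise B[a]P. Diclofenac is a non-steroidal anti-inflammatory drug that blocks cyclooxygenases, the enzymes that make the precursor of prostaglandins from arachidonic acid. In RNA of a whole animal, muscle, skin, eye, brain, liver and blood all contribute, and fewer cells of a type cannot be told apart from less RNA per cell.

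For each entry (1 transcript class of 1 gene identifier) the log2 fold change of B[a]P was subtracted from that of Mixture, both against Control in the authors' deposited table, so that Control cancels. Of 35497 entries for 30628 gene identifiers, the 21622 that averaged at least 1 CPM were tested. Entries just above that limit, within 0.1 on the log2 scale, numbered 255 and had a median absolute difference of 0.61 with a median SE of 0.58. The 271 entries just below it had 0.50 with an SE of 0.60. The error of a difference (SE) was implied by the squared fold change over its likelihood ratio and had a median of 0.25 log2 units. Replicates are already combined in the table, so no value per library, SD or n per value can be given here, and the depth behind a value is known only as its average abundance. Genes that mark skeletal muscle, heart, lens, photoreceptors, neurons, red cells, liver, skin, neutrophils and macrophages, and cartilage were all measured above 1 CPM where the table held them. Of markers of exocrine pancreas 2 of 4 lay above it, of intestine and of myelinating glia 2 of 3 each, of oocytes 1 of 3 and of testis 2 of 3.

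Among 44 gene lists, the share called higher in Mixture than in B[a]P was 65.1% for AP-1 and immediate early genes. It was 50% each for heat shock and chaperone genes and for complement components, and 47.9% for liver plasma protein genes. Shares called lower were 84.6% of mitochondrially encoded genes, 83.3% of lens crystallin genes, 65% of giant sarcomere protein genes and 58% of synaptic vesicle and release genes. They were 57.5% of muscle energy genes, 50% of muscle calcium handling genes, 46.2% of other lens genes and 41.7% of neurotransmitter-gated channel genes. Cartilage, bone and collagen genes had 33% lower, and sarcomere and troponin genes 31.6%. By the approximate Wald test on the implied variances, at a Benjamini-Hochberg adjusted p under 0.05, 3556 of 21622 entries (16.4%) differed, 1801 higher (8.33%) and 1755 lower (8.12%) in Mixture. Of all 21622 entries, 1462 (6.76%) were called with a difference of at least 2-fold, 756 higher (3.5%) and 706 lower (3.27%). With the most abundant entry of each of 19161 symbols, 3292 (17.2%) differed, 1656 higher (8.64%) and 1636 lower (8.54%), and the median difference over symbols was 0.01. The counts for gene groups below use 1 entry per symbol and are to be read against these last shares. The share called depended on abundance, from 6.22% of entries between 1 and 2 CPM (median SE 0.51) to 29.1% at 256 CPM and above (median SE 0.20). The smallest difference called was 0.90 in the first of these classes and 0.35 between 64 and 256 CPM, so small differences of scarce transcripts were not detectable at this depth.

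**Figure D1:**
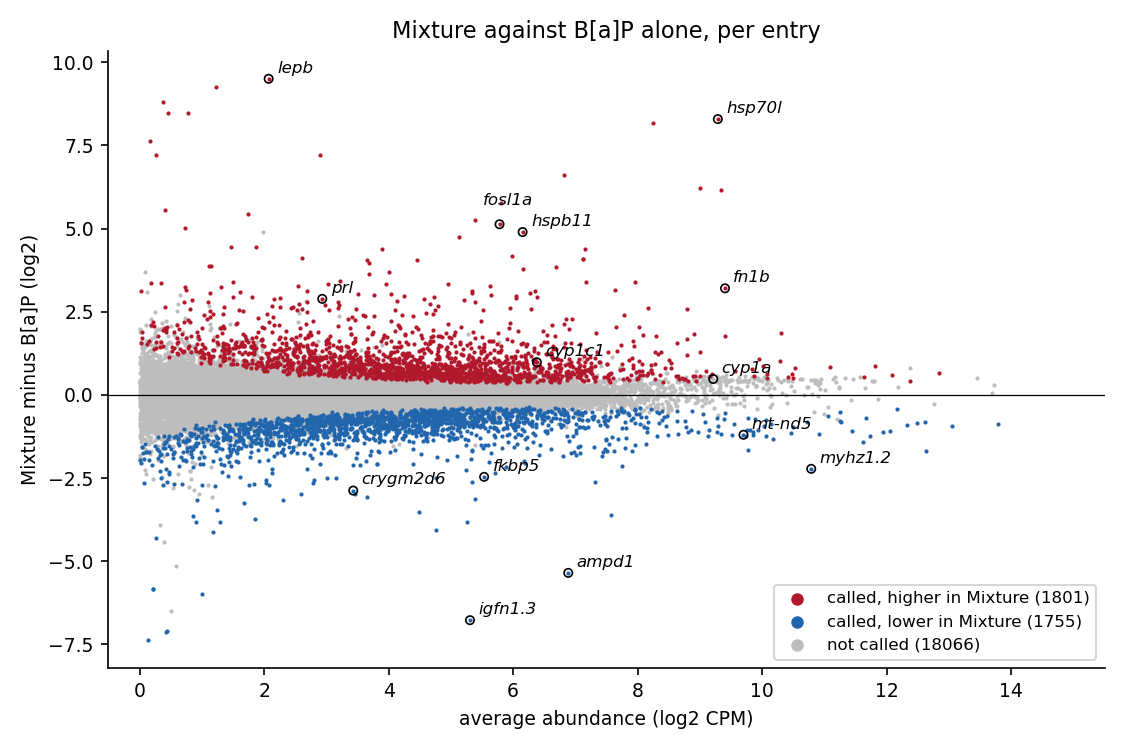
Mixture minus B[a]P (log2, vertical axis) against average abundance (log2 CPM, horizontal axis) for the 21622 entries tested, 1 point each. The 1801 entries called higher in Mixture are red and the 1755 called lower are blue. A few genes are circled and labelled, among them igfn1.3 at -6.77 and hsp70l at 8.29.

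The AP-1 genes, which encode dimerising transcription factors of the first wave of a stress or growth response, were higher in Mixture in most cases. Of 43 immediate early genes tested, 28 were higher, 3 lower and 12 not called (shares of 65.1% and 6.98%, against 8.64% and 8.54% of all symbols), with a median difference of 1.26 and quartiles of 0.30 and 2.07. The gene fosl1a, a Fos-related subunit, stood at 5.43 in Mixture and 0.30 in B[a]P in the authors' deposited table (log2 against Control), and the difference of 5.13 ± 0.25 (implied SE) had a 95% interval of 4.65 to 5.61 (adjusted p = 3.53e-92, approximate Wald test). The related fosab had 5.29 in Mixture and -0.47 in B[a]P in the authors' deposited table, 54.1-fold higher in Mixture. For atf3, an ATF family member induced by many stresses, the deposited values of the authors were 4.63 in Mixture and 0.46 in B[a]P, a difference of 4.17 ± 0.25. JunB, encoded by junbb, partners Fos proteins, and its gene differed by 3.29 ± 0.23. The 3 lower members were the orphan nuclear receptor genes nr4a1, nr4a2a and nr4a2b, with differences of -0.87, -1.01 and -0.95.

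Chaperone genes, whose products hold or refold damaged proteins, also differed by wide margins. Of 48 small heat shock protein and chaperone genes, 24 were higher and 4 lower (median 0.58). The small heat shock protein gene hspb11 stood at 5.41 in Mixture and 0.52 in B[a]P in the authors' deposited table, 29.8-fold higher in Mixture (adjusted p = 1.79e-78, approximate Wald test). Its relative hspb1 was 10.4-fold higher, bag3 (a co-chaperone of Hsp70 that works with small heat shock proteins in muscle) 8.32-fold and hspbp1, a nucleotide exchange factor of Hsp70, 8.69-fold. The inducible Hsp70 genes hsp70l and hsp70.1, chosen after their values were seen, differed by 8.29 ± 0.70 and 8.16 ± 0.72. These are near-identical copies, so the split of reads between them is uncertain. The 4 lower genes were hspb6 at -1.75, hspa4l at -1.68, hspb3 at -1.58 and smyd1a at -0.66, of which hspb3, hspb6 and smyd1a are known as muscle genes. Of these hspb3 averaged 1.02 CPM, just above the abundance limit, with an SE of 0.55.

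The integrated stress response, in which cells slow translation and switch on repair genes, was less uniform. Of 49 genes of the unfolded protein and integrated stress responses, 16 were higher and 1 was lower, with a median of 0.20 and 28 members above 0. The gene ppp1r15a, whose product restores translation after stress, stood at 3.14 in Mixture and 0.02 in B[a]P in the authors' deposited table, 8.69-fold higher in Mixture. Also higher were cebpb (2.93 ± 0.28), the cationic amino acid transporter gene slc7a3a (1.47 ± 0.17) and ddit3 (1.36 ± 0.19), which encodes the stress factor Chop. None of 40 proteasome subunit genes was called in either direction (median -0.17, quartiles -0.23 and -0.08).

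Growth arrest and antioxidant genes were more often higher than lower. In the p53 and growth arrest list 15 of 33 were higher and 0 lower (median 0.51). The cell cycle inhibitor gene cdkn1a stood at 2.23 in Mixture and 0.53 in B[a]P in the authors' deposited table (difference 1.70 ± 0.32, adjusted p = 5.30e-06, approximate Wald test), and gadd45ba differed by 2.37 ± 0.26. For mdm2, which encodes the ubiquitin ligase of p53, the difference of 0.58 had an interval of -0.10 to 1.25 and did not pass (adjusted p = 0.269). Among 51 Nrf2 and glutathione genes 12 were higher and 2 lower, the extracellular glutathione peroxidase gene gpx3 by 2.23 ± 0.26, the conjugate exporter gene abcc2 by 2.02 ± 0.25 and the autophagy receptor gene sqstm1 by 1.39 ± 0.21. The heme oxygenase gene hmox1a differed by 0.67 with an adjusted p of 0.0496, and the mitochondrial superoxide dismutase gene sod2 was lower by -0.91 ± 0.21.

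Genes of DNA replication and mitosis lay above 0 in 64 of 64 cases, with a median of 0.42, but only 14 passed the test. Among these cdc6, which loads the replicative helicase, differed by 1.26 ± 0.30, the thymidine kinase gene tk1 by 1.11 ± 0.25 and cyclin D1 (ccnd1) by 0.89 ± 0.15. Cytosolic ribosomal protein genes lay above 0 in 75 of 76 cases (median 0.44, quartiles 0.39 and 0.49), and 2 of them passed as higher and 1 as lower. Of 66 DNA repair genes 6 were higher and 0 lower (9.09%, close to the 8.64% over all symbols). Of 66 splicing factor genes 1 was higher and 4 were lower, with a median of 0.06.

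**Figure D2:**
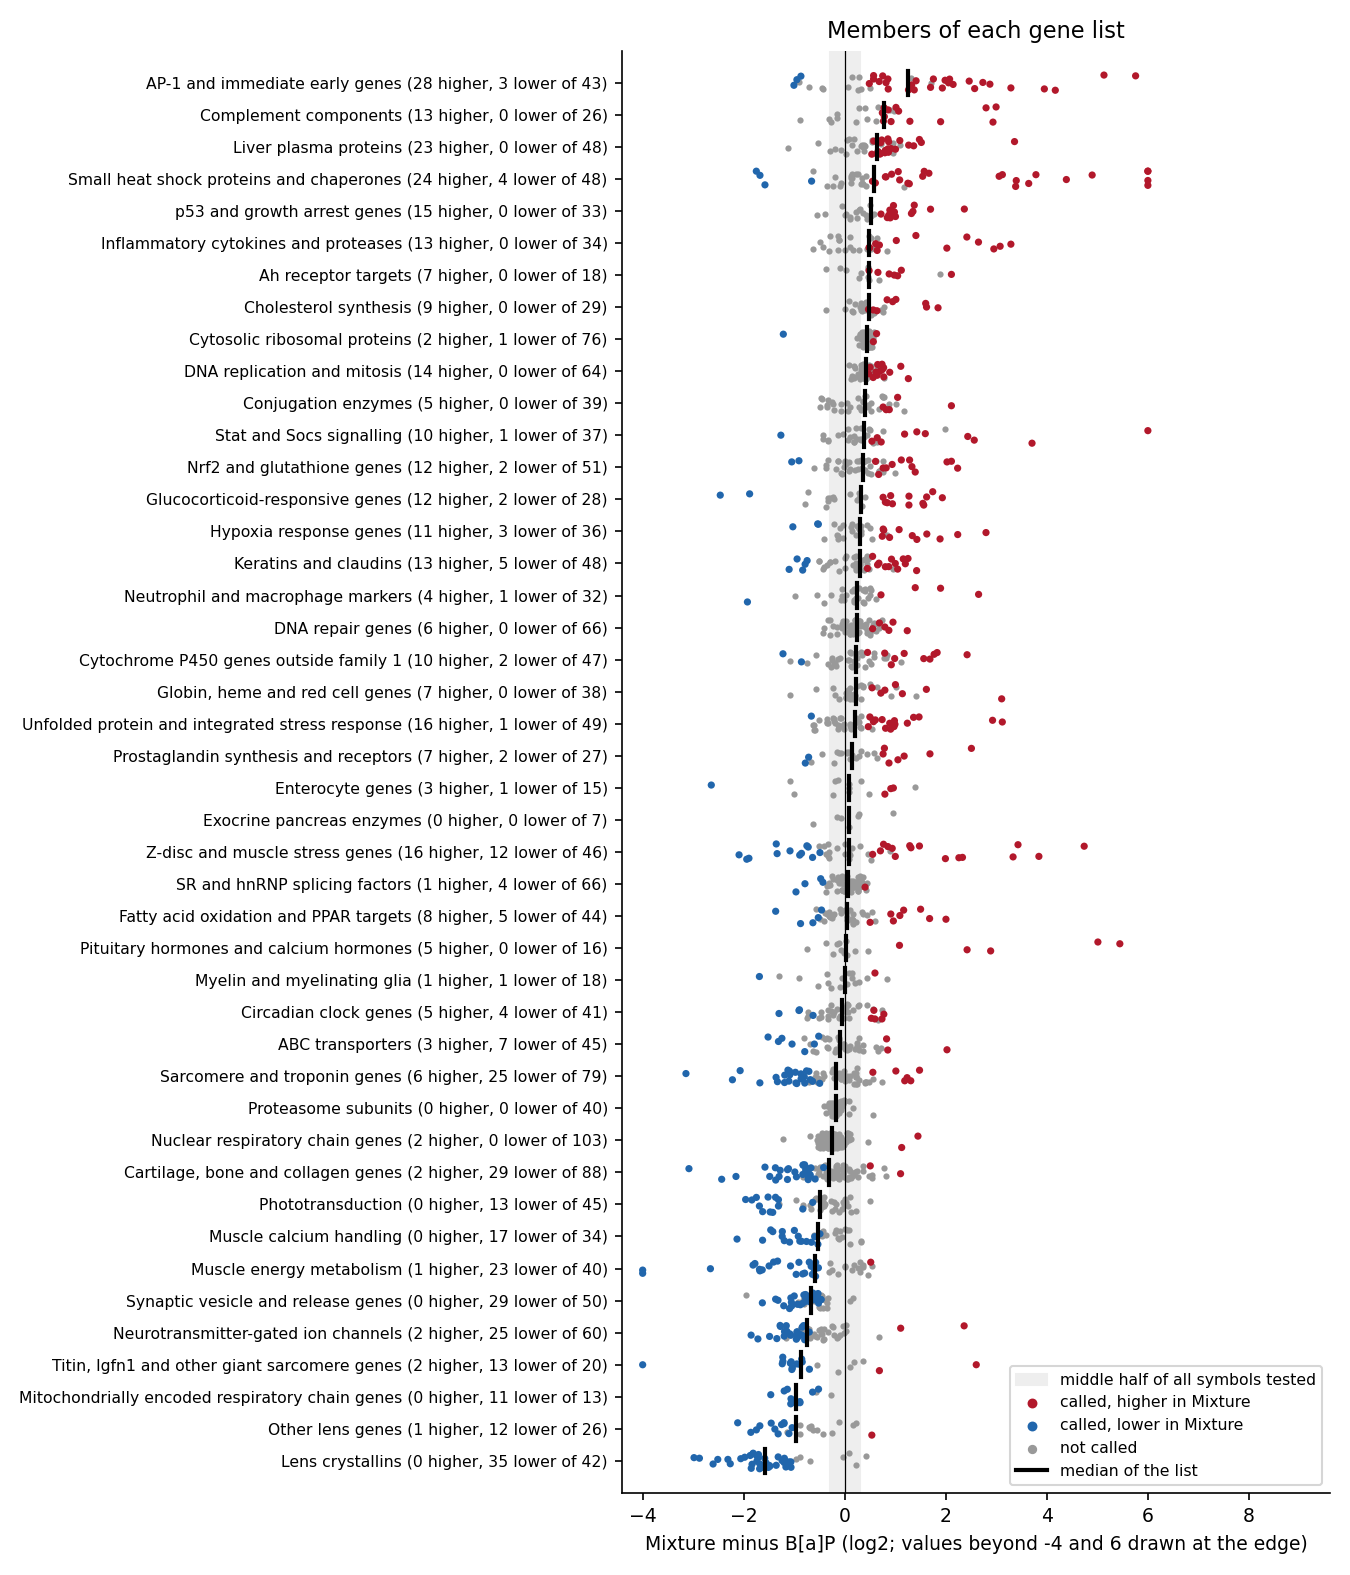
Mixture minus B[a]P (log2, horizontal axis) for every tested member of 44 gene lists, ordered by median, 1 point per symbol, with the counts called beside each name and values beyond -4 and 6 drawn at the edge. Black bars are list medians, from 1.26 for AP-1 and immediate early genes at the top to -1.58 for lens crystallins at the bottom, and the grey band spans the quartiles over all symbols.

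Only the Ah receptor targets, a list chosen with earlier results known, had medians far from Control in both B[a]P and Mixture. In B[a]P against Control 10 of the 18 targets were called higher and 0 lower, where 0.116% of all entries were called higher. Their median was 2.58 in Mixture and 1.71 in B[a]P in the authors' deposited table, and the median difference was 0.48. Of 18 targets tested, 7 were higher in Mixture and 0 lower, and 16 lay above 0. The P450 gene cyp1a (ENSDARG00000098315) stood at 7.28 in Mixture and 6.80 in B[a]P in the authors' deposited table. Its difference of 0.48 ± 0.32 had an interval of -0.15 to 1.11 and did not pass (adjusted p = 0.346, approximate Wald test). The related cyp1c1 had 3.91 in Mixture and 2.93 in B[a]P in the authors' deposited table, 1.97-fold higher in Mixture (adjusted p = 8.07e-04). For cyp1b1 the entry with most reads, a nonsense-mediated decay transcript, was 1.58-fold higher (adjusted p = 0.0219), whereas its protein-coding entry differed by 0.74 ± 0.37 and did not pass (adjusted p = 0.163). The forkhead gene foxq1a was 1.84-fold higher, and tiparp, an ADP-ribosyltransferase gene that damps Ah receptor signalling, differed by 0.48 ± 0.17.

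Among further targets the called differences exceeded 1 log2 unit. The Nrf2-related gene nfe2l2b stood at 3.04 in Mixture and 1.92 in B[a]P in the authors' deposited table, a difference of 1.12 ± 0.30. The glucuronosyltransferase gene ugt1a7 differed by 1.05 ± 0.25 and the glutathione transferase gene gstp2 by 2.11 ± 0.58. The average of gstp2 was only 4.45 CPM. The related gstp1, named after its value was seen and averaging 575 CPM, differed by 0.27 ± 0.28 and did not pass. The paralogue cyp1c2 and the receptor repressor gene ahrra differed by 0.46 ± 0.30 and 0.46 ± 0.48 and did not pass (adjusted p = 0.321 and 0.579). Conjugation enzymes as a family, which attach sugars, sulfate or glutathione to oxidised compounds, were higher in 5 of 39 cases and lower in 0 (median 0.40). P450 genes outside family 1 were higher in 10 of 47 cases and lower in 2, among them the vitamin D hydroxylase gene cyp24a1 at 2.42 ± 0.44 and cyp27c1, a retinoid desaturase gene, at 1.69 ± 0.23. Of 45 ABC transporter genes 3 were higher and 7 lower (median -0.10).

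The cyclooxygenase genes, which encode the targets of diclofenac, were all higher in Mixture. The inducible form ptgs2b stood at 3.13 in Mixture and 0.63 in B[a]P in the authors' deposited table, 5.68-fold higher in Mixture (adjusted p = 6.35e-08, approximate Wald test). Its copy ptgs2a was 2.26-fold higher and the constitutive ptgs1 1.72-fold. Downstream, ptges (prostaglandin E synthase) differed by 1.69 ± 0.26, while hpgd, whose product degrades prostaglandins, was lower by -0.78 ± 0.23 and ptgesl by -0.71 ± 0.21. Over the 27 prostaglandin synthesis and receptor genes tested, 7 were higher and 2 lower, with a median of 0.14.

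Inflammatory cytokine and protease genes were higher in Mixture wherever they were called. Of 34 tested, 13 were higher and 0 lower (median 0.49). The chemokine gene cxcl18b stood at 2.72 in Mixture and -0.57 in B[a]P in the authors' deposited table, 9.77-fold higher in Mixture, and the matrix metalloproteinase gene mmp9 was 8.43-fold higher. Of 37 genes of Stat and Socs signalling, which carry cytokine signals and shut them off, 10 were higher and 1 lower. The feedback inhibitor genes socs3a and socs3b differed by 3.71 ± 0.34 and 2.43 ± 0.24, the signal transducer stat3 by 1.59 ± 0.21 and its receptor subunit il6st by 1.43 ± 0.19. The leptin gene lepb, a member chosen after its value was seen, had 7.72 in Mixture and -1.79 in B[a]P in the authors' deposited table, with a wide interval of the difference from 6.44 to 12.6. Neutrophil and macrophage markers were called higher in 4 of 32 cases and lower in 1, shares of 12.5% and 3.13%, so the list of leukocyte genes stood near the share over all symbols.

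Complement and other plasma protein genes, most of them made in liver, were among the lists that lay lowest in B[a]P. Complement components had a median of 0.38 in Mixture and -0.28 in B[a]P in the authors' deposited table, with 13 of 26 higher in Mixture and 0 lower. The terminal component gene c6 differed by 2.80 ± 0.21, c4b by 3.00 ± 0.32 and c3a.6 by 1.90 ± 0.21. Liver plasma protein genes had a median of 0.32 in Mixture and -0.28 in B[a]P in the authors' deposited table, with 23 of 48 higher and 0 lower in Mixture. Kininogen (kng1) stood at 1.00 in Mixture and -0.48 in B[a]P in the authors' deposited table, and the clotting factor gene f5 differed by 1.27 ± 0.17. Angiotensinogen (agt) had 0.44 in Mixture and -1.08 in B[a]P in the authors' deposited table, a difference of 1.52 ± 0.28. None of these plasma protein genes was called in B[a]P against Control, where 32 of all entries tested (0.148%) were called, 25 higher (0.116%) and 7 lower (0.0324%). The extracellular matrix gene fn1b, a fibronectin chosen after its value was seen, was 9.22-fold higher in Mixture.

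Metabolic genes moved in parts. Cholesterol synthesis genes were higher in 9 of 29 cases and lower in 0, with 28 above 0. The sterol sensor gene insig1 differed by 1.85 ± 0.26, the farnesyl diphosphate synthase gene fdps by 0.95 ± 0.21 and cyp51 by 0.84 ± 0.16. Of 44 fatty acid oxidation and PPAR target genes 8 were higher, among them the lipid droplet gene plin2 at 2.00 ± 0.47 and angptl4 at 1.17 ± 0.22, and 5 were lower, among them the muscle carnitine transferase gene cpt1b at -1.37 ± 0.27. Red cell and heme genes were higher in 7 of 38 cases and lower in 0, and the globin gene hbbe3, expressed in embryos, stood at 2.52 in Mixture and 0.90 in B[a]P in the authors' deposited table. In the hypoxia list 11 of 36 were higher and 3 lower, the growth factor binding protein gene igfbp1a among the higher at 2.24 ± 0.27.

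**Figure D3:**
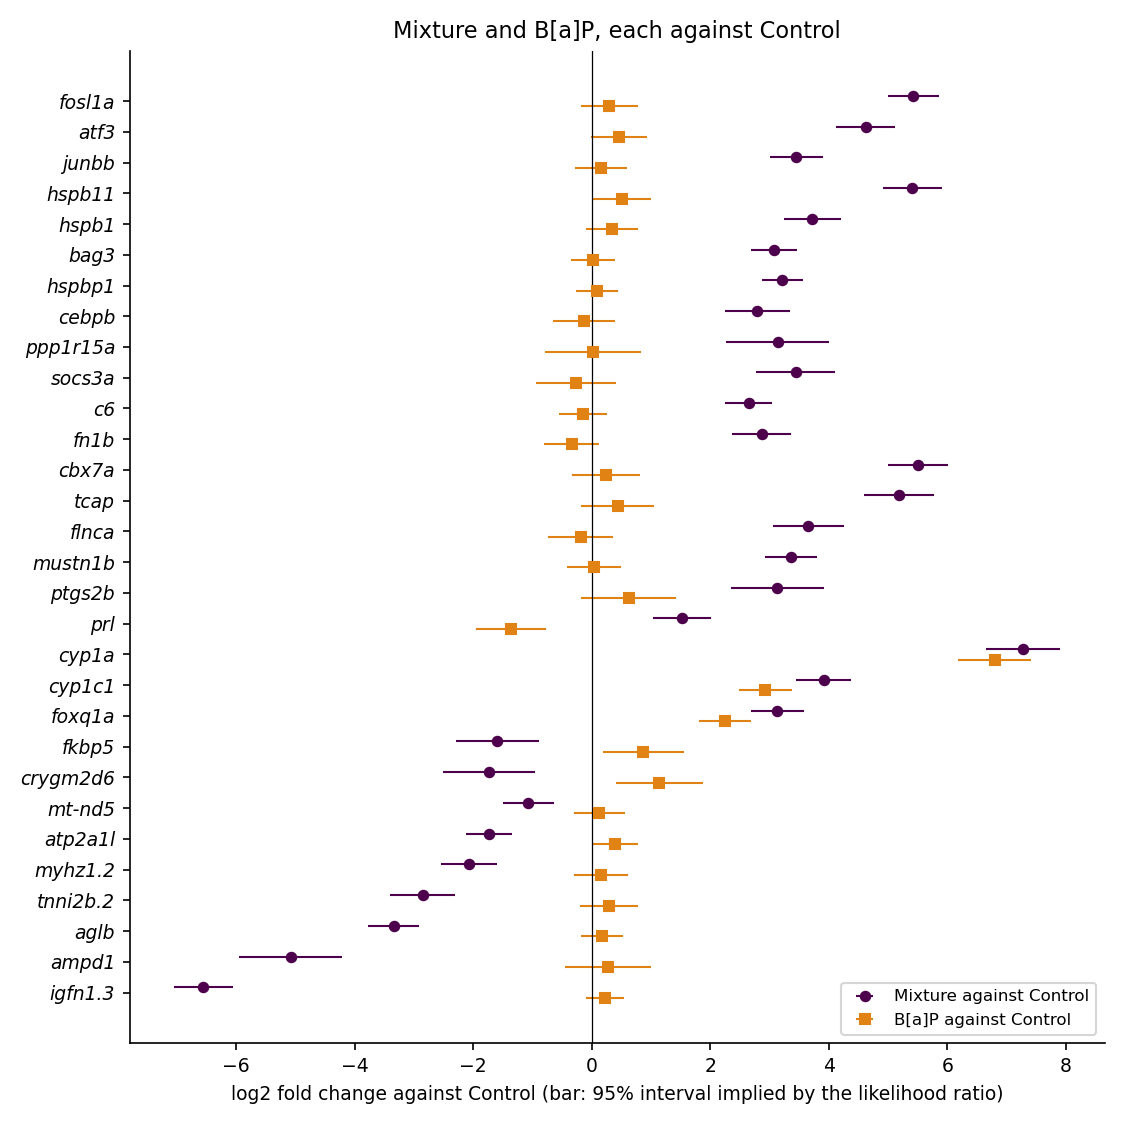
Log2 fold change against Control (horizontal axis) of 30 genes, all named in the text except cbx7a and mt-nd5, in Mixture (purple circles) and in B[a]P (orange squares), as in the authors' deposited table, with 95% intervals implied by the likelihood ratio. For most genes B[a]P lies near 0 while Mixture is displaced, whereas cyp1a, cyp1c1 and foxq1a are far above 0 in both groups.

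Skeletal muscle genes differed in both directions, also within 1 role. The thick and thin filament list, which its family names extend to smooth muscle and non-muscle myosins, had 25 of 79 lower and 6 higher (31.6% and 7.59%). The fast myosin heavy chain gene myhz1.2 stood at -2.06 in Mixture and 0.16 in B[a]P in the authors' deposited table, 4.67-fold lower in Mixture. It belongs to a cluster of near-identical copies, so its share of reads is uncertain. The tandem troponin I genes tnni2b.2 and tnni2b.1 differed in opposite directions, by -3.14 ± 0.29 and 1.23 ± 0.27. The cardiac troponin T gene tnnt2c was higher by 1.19 ± 0.21 and the leiomodin gene lmod2b, which nucleates thin filaments, by 1.48 ± 0.31.

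The giant proteins that span the sarcomere and hold it in register were lower in 13 of 20 cases and higher in 2 (median -0.87). The smallest p among the genes named here was that of igfn1.3, an immunoglobulin and fibronectin repeat gene, at -6.55 in Mixture and 0.22 in B[a]P in the authors' deposited table. Its difference of -6.77 ± 0.25 corresponds to 109-fold lower in Mixture (adjusted p = 1.30e-154, approximate Wald test). The titin genes ttn.1 and ttn.2, named after their values were seen, were lower by -1.24 ± 0.22 and -1.05 ± 0.20 at averages of 856 and 982 CPM. The myomesin gene myom2a and the obscurin-like gene obsl1b were lower by -1.22 ± 0.17 and -1.08 ± 0.16. The 2 higher members were the Xin repeat genes xirp1 and xirp2a, at 2.60 ± 0.25 and 0.69 ± 0.19.

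Z-disc and muscle stress genes, which anchor filaments and respond to strain, were split, with 16 of 46 higher and 12 lower (median 0.08). The titin cap gene tcap stood at 5.18 in Mixture and 0.44 in B[a]P in the authors' deposited table, 26.7-fold higher in Mixture. Filamin C (flnca), an actin crosslinker, was 14.3-fold higher and mustn1b, a small nuclear protein gene of regenerating muscle and bone, 10.1-fold. Lower were synpo2b at -2.09 ± 0.24 and the kelch gene kbtbd12 at -1.90 ± 0.23. Gene copies of the zebrafish genome duplication parted here: ankrd1a was higher by 3.43 ± 0.40 (named after its value was seen) and ankrd1b lower by -1.94 ± 0.19, and synpo2lb was higher by 1.48 ± 0.16 and synpo2la lower by -1.08 ± 0.16.

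Calcium handling and energy supply of muscle were lower with 1 exception among called members. Of 34 calcium handling genes 17 were lower and 0 higher (median -0.53). The sarcoplasmic calcium pump gene atp2a1l stood at -1.73 in Mixture and 0.40 in B[a]P in the authors' deposited table, 4.38-fold lower in Mixture (adjusted p = 3.58e-22, approximate Wald test). The calcium store gene casq1a and the release channel genes ryr3 and ryr1b were lower by -1.63 ± 0.21, -1.47 ± 0.17 and -1.24 ± 0.17. Of 40 muscle energy genes 23 were lower and 1, the phosphoglucomutase gene pgm1, was higher. AMP deaminase (ampd1) stood at -5.08 in Mixture and 0.27 in B[a]P in the authors' deposited table, 40.8-fold lower in Mixture. Outside the lists the glycogen debranching gene aglb was 11.5-fold lower. Of the nicotinic receptor of the neuromuscular junction, chrng, the gamma subunit of immature muscle, was higher by 2.36 ± 0.42. The epsilon subunit gene chrne (named after its value was seen), whose product replaces gamma in mature muscle, was lower by -0.95 ± 0.19. The muscle beta subunit gene chrnb1 was also lower, by -0.89 ± 0.15.

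Mitochondrially encoded genes were lower in 11 of 13 cases (median -0.96), with medians of -0.80 in Mixture and 0.17 in B[a]P in the authors' deposited table. All 7 genes of complex I were called, between -1.20 and -0.89, as were the 2 of complex V, at -1.46 (mt-atp8) and -1.14, and 2 of 3 of complex IV. The single complex III gene, at -0.57, was not called. The nuclear genes of the same respiratory chain lay below 0 in 92 of 103 cases, but their median was -0.24, 0 were called lower and 2 were called higher. Those 2 were the complex I assembly gene ndufaf7 at 1.45 ± 0.21 and cox4i1l at 1.13 ± 0.42.

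Lens genes were the group with the lowest median. The 42 crystallin genes tested, which encode the refractive proteins of lens fibres, had a median of -1.25 in Mixture and 0.30 in B[a]P in the authors' deposited table, and 35 were lower in Mixture with 0 higher. All 26 gamma crystallin genes were called lower, with differences from -2.98 to -1.19 and a median of -1.74. Beta A and beta B crystallin genes were called in 8 of 11 cases (median -1.11). Of 3 alpha crystallin genes 1 was lower, and the 2 crybg genes, which are not confined to lens, lay at -0.03 and 0.08. The gene crygm2d6 stood at -1.73 in Mixture and 1.14 in B[a]P in the authors' deposited table, 7.34-fold lower in Mixture. The 20 crygm2d genes are near-identical copies, so they count as few independent measurements and how reads were divided among them is uncertain.

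Other lens genes, which do not share sequence with crystallins, were lower in 12 of 26 cases and higher in 1 (median -0.96). The heat shock factor gene hsf4, which in mammals drives crystallin expression in lens fibres, stood at -1.86 in Mixture and 0.26 in B[a]P in the authors' deposited table, 4.34-fold lower in Mixture. The beaded filament gene BFSP1, a structural protein of the fibre cytoskeleton, was lower by -1.68 ± 0.28 and the large Maf gene mafaa by -1.32 ± 0.15. The member called higher was the connexin gene cx43.4 at 0.54 ± 0.15. Phototransduction genes of the retina were lower in 13 of 45 cases and higher in 0 (median -0.49), with the recoverin gene rcvrna at -1.75 ± 0.45 and the arrestin gene sagb at -1.48 ± 0.31. The rod factor gene nrl stood at -1.37 in Mixture and 0.25 in B[a]P in the authors' deposited table.

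Synaptic and neurotransmitter-gated channel genes that were called were lower with 2 exceptions. The channel list also holds subunits of muscle, among them chrng, which was higher, and chrnb1, which was lower. Synaptic vesicle and release genes were lower in 29 of 50 cases and higher in 0, with 48 below 0 (median -0.67, quartiles -0.87 and -0.50). The active zone scaffold gene bsnb differed by -1.21 ± 0.23, the GABA transporter gene slc6a1b by -1.09 ± 0.21 and the vesicle fusion ATPase gene nsfa by -0.88 ± 0.17. Of 60 subunit genes of neurotransmitter-gated channels 25 were lower and 2, both nicotinic, higher (median -0.76), with the NMDA receptor gene grin2da at -1.27 ± 0.23 and the glycine receptor gene glra1 at -1.15 ± 0.20. Myelin genes had 1 of 18 higher and 1 lower, with a median of 0.00.

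Cartilage, bone and collagen genes were lower in 29 of 88 cases and higher in 2 (median -0.30). Aggrecan (acana), the main proteoglycan of cartilage, differed by -1.48 ± 0.24, the fibrillar collagen gene col11a2 by -1.11 ± 0.20 and col17a1a, a skin hemidesmosome collagen gene, by -1.30 ± 0.18. Keratin and claudin genes of epithelia were split, with 13 of 48 higher and 5 lower. The simple epithelial keratin gene krt18b was higher by 1.25 ± 0.17 and the claudin gene cldn7b by 1.05 ± 0.16, while the basal skin keratin gene krt5 was lower by -0.78 ± 0.20. Exocrine pancreas genes were mostly below the abundance limit, and of 7 tested none was called. Enterocyte genes were higher in 3 of 15 cases and lower in 1 (median 0.09), the lower being the glucose transporter gene slc5a1 at -2.64 ± 0.63. It averaged 1.05 CPM, just above the abundance limit. It stood at -1.61 in Mixture and 1.03 in B[a]P in the authors' deposited table, neither called against Control.

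Hormone genes were higher in Mixture where they were called, and clock genes stood near the shares over all symbols. Of 16 pituitary and calcium hormone genes 5 were higher and 0 lower, with a median of 0.03. Prolactin (prl), a pituitary hormone that regulates ion balance in fish, stood at 1.52 in Mixture and -1.36 in B[a]P in the authors' deposited table, a difference of 2.89 ± 0.30 (adjusted p = 2.24e-19, approximate Wald test). It was 1 of the 7 entries called lower in B[a]P against Control. The parathyroid hormone gene pth1b had 4.60 in Mixture and -0.84 in B[a]P in the authors' deposited table at an average of 3.33 CPM, a difference of 5.45 ± 0.71. Of 28 glucocorticoid-responsive genes 12 were higher, such as dusp1 at 1.93 ± 0.25 and g6pca.1 at 1.55 ± 0.24, and 2 were lower. These 2 were fkbp5 and klf9. The gene fkbp5 stood at -1.59 in Mixture and 0.87 in B[a]P in the authors' deposited table, and klf9 differed by -1.88 ± 0.36. Clock genes were higher in 5 of 41 cases and lower in 4 (12.2% and 9.76%, against 8.64% and 8.54% of all symbols). Among the lower was the Rev-erb gene nr1d2a at -0.90 ± 0.18.

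The diclofenac effect with B[a]P present was set beside diclofenac alone (Diclofenac against Control), a comparison that shares no library with it. Across the 21622 entries Mixture minus B[a]P and the deposited fold change of the authors for Diclofenac had r = 0.634 (Spearman 0.662), as a description, since entries are not independent. Of the 3556 entries called with B[a]P present, 3434 (96.6%) had the same sign with diclofenac alone, against 74.8% of all entries tested. Called in both and in the same direction were 2003, which is 56.3% of the calls with B[a]P present and 57.3% of the 3495 calls (16.2%; 8.52% higher and 7.64% lower) with diclofenac alone, and 6 were called in opposite directions. Over the entries called in both, the median absolute effect was 0.97 with B[a]P present and 0.96 without. These entries were selected by the same limit in both comparisons, so the medians cannot show whether B[a]P changed the size of the effect. An entry called in 1 of the comparisons and not in the other is not thereby shown to differ, and the test of the difference between the effects follows.

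That test called 10 of 21622 entries (0.0462%), 3 higher (0.0139%) and 7 lower (0.0324%) with B[a]P present. An unadjusted p under 0.05 was held by 979, where uniform p-values would give 1081.1. The largest implied variance was used, which raises p-values, so the lower number does not show that the effects are alike. The count of entries called depended on the setting. With the median of the implied variances it was 30 (9 higher, 21 lower). With Benjamini-Yekutieli adjustment it was 5 (2 higher, 3 lower), among them foxq1a, cyp1c1 and BFSP1. The gene crygm2d18 was not among these 5, and its call was also lost without an abundance limit. Ah receptor targets provided 2 of the 10. For foxq1a diclofenac changed the value by 0.88 ± 0.26 with B[a]P present and by -1.14 alone in the authors' deposited table, and these effects differed by 2.02 ± 0.37 (adjusted p = 2.86e-04, approximate Wald test). For cyp1c1 the effects were 0.98 ± 0.24 with B[a]P present and -0.72 alone in the authors' deposited table, a difference of 1.70 ± 0.34 (adjusted p = 0.00245). Lens genes provided another 2. For BFSP1 the effects were -1.68 ± 0.28 with B[a]P present and 0.61 alone in the authors' deposited table, a difference of -2.29 ± 0.40 (adjusted p = 7.78e-05), and for crygm2d18 they were -2.51 ± 0.32 with B[a]P present and -0.56 alone, a difference of -1.95 ± 0.46 (adjusted p = 0.0401).

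List medians of the effects with and without B[a]P are given side by side as a description, without a test. Crystallins had a median of -1.58 with B[a]P present and -0.13 with diclofenac alone in the authors' deposited table, and the other lens genes had -0.96 with B[a]P present and 0.13 alone. With diclofenac alone 1 of the 42 crystallin genes was higher and 2 were lower. The difference between the effects passed the test for 1 of 42 crystallins and 1 of 26 other lens genes, and with the median of the implied variances for 2 crystallins and 4 other lens genes, so for most members it was not shown. For the Ah receptor targets the medians were 0.48 with B[a]P present and -0.05 alone in the authors' deposited table. With diclofenac alone 3 of the 18 targets were called higher and 2 lower, the lower being foxq1a and cyp1c1. Among the higher was nfe2l2b, at 2.04 alone and 1.12 with B[a]P present. The difference between the effects passed the test for 2 of the 18 targets. Liver plasma proteins had medians of 0.65 with B[a]P present and 0.17 alone, with 0 of 48 members called for the difference. AP-1 and immediate early genes had medians of 1.26 with B[a]P present and 0.79 alone in the authors' deposited table, and muscle calcium handling genes -0.53 with B[a]P present and -0.47 alone, with 0 members of either list called for the difference.

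**Figure D4:**
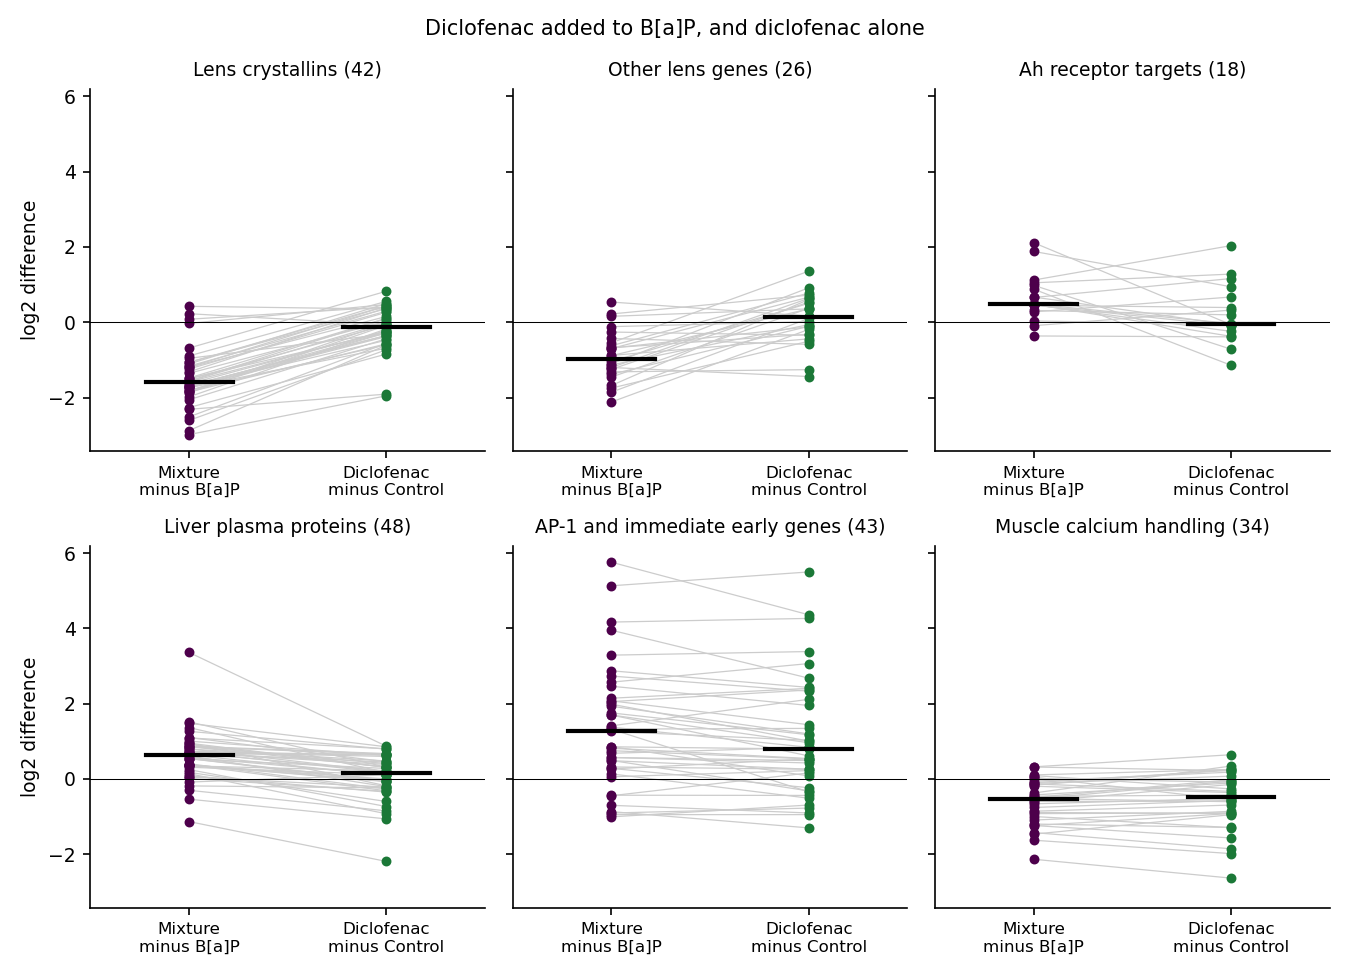
Effect of diclofenac with B[a]P present (Mixture minus B[a]P, left, purple) and alone (Diclofenac minus Control, right, green), in log2 units on the vertical axis, for the tested members of 6 gene lists joined by lines. Black bars are medians, which for crystallins lie at -1.58 with B[a]P present and -0.13 alone, and for muscle calcium handling at -0.53 with B[a]P present and -0.47 alone.

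**Figure D5:**
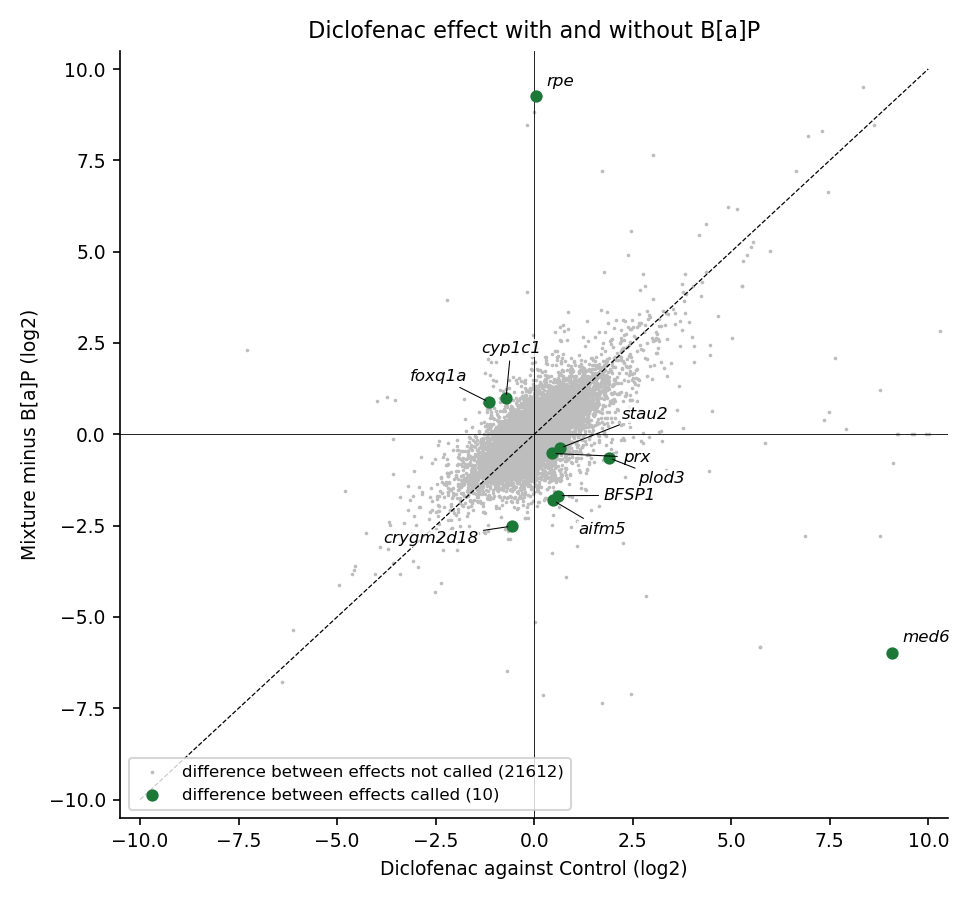
Mixture minus B[a]P (log2, vertical axis) against Diclofenac minus Control (log2, horizontal axis) for 21622 entries, with the line of equal effects dashed. The 10 entries whose effects differed by the test are green and named, and the rest scatter about the line with r = 0.634.

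The Wald tests rest on the assumption that Mixture and B[a]P libraries vary equally within their groups, which cannot be tested on combined values. The test of the difference between the diclofenac effects assumes the same spread in Diclofenac and Control also. The implied variances of Mixture and B[a]P had a median ratio of 1.01, with 0.960 and 1.11 at the 5th and 95th percentiles, but they come from 1 fit and do not show the spread of each group.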

How the data were processed

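Messenger RNA was sequenced from stranded libraries, per the labels' protocols; kallisto, edgeR and limma, with the build GRCz11, are listed in the submitters' processing notes without roles or versions. The authors deposited 1 table of comparisons with Control, 3 libraries a group already combined, for 35497 entries. It holds log2 fold changes and an average log2 CPM (log base not stated by the authors and taken as 2, since the deposited averages summed to 1.01e+06 CPM), a likelihood ratio (a test score, per the file headers) and a p-value. Recomputed from the likelihood ratio (chi-square, 1 degree of freedom), the deposited p-value of Mixture came back with a relative error of at most 9.07e-13. That p-value is therefore unadjusted. Those of B[a]P and Diclofenac were not recomputed and were taken as unadjusted too. The sources used here state neither filters nor library scaling.

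From the table, logFC of Mixture minus logFC of B[a]P was formed for the 21622 entries averaging 1 CPM or more. Its variance was the largest of 3 implied variances (squared fold change over likelihood ratio), and a two-sided Wald test used the chi-square tail with 1 degree of freedom. The difference between the diclofenac effects with and without B[a]P had 2 times that variance. p-values were adjusted over all entries tested (Benjamini-Hochberg, 0.05). Deposited p-values against Control were adjusted alike. With no statement that replicates were separate cultures or animals, p-values measure the spread between libraries, which may be technical. The test was checked on simulated counts whose spread was known and equal in all groups, so that check cannot speak to the assumption of equal spread.

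The 44 gene lists and the members named were chosen with earlier results of these data known. Of 1439 names asked, 1343 matched by symbol and 33 by another name (RefSeq table of GRCz12tu, names only), and 792 symbols came by family pattern. Named genes are, among entries of at least 8 CPM and 2-fold, the 12 higher and 12 lower by p, up to 4 higher and 4 lower called members per list, 18 genes fixed by name, and up to 6 per direction for the difference between effects; others are marked as chosen after their values were seen. Alternatives were other abundance limits, variances, centring, Benjamini-Yekutieli adjustment, size limits and entry classes. Python 3.11.15, numpy 2.4.6, pandas 2.3.3, scipy 1.17.1 and matplotlib 3.10.9 were used.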

Additional observations from a re-analysis of the deposited data

Results flagged for a closer look

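Each of the 10 entries below was singled out because the effect of diclofenac with B[a]P present (Mixture minus B[a]P) differed by test from that of diclofenac alone (Diclofenac minus Control), and the value given is the effect with B[a]P present minus the effect alone, on the log2 scale. The Ah receptor targets foxq1a and cyp1c1 had 2.02 and 1.70. The lens genes BFSP1 and crygm2d18 had -2.29 and -1.95, the second being 1 of many near-identical copies whose reads may be split. The periaxin gene prx, which encodes a protein of myelinating glia that also lies in lens fibre membranes, had -0.97, with effects of -0.52 with B[a]P present and 0.45 alone in the authors' deposited table.

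The other 5 were chosen after their values were seen, and 4 of them have a more abundant entry under the same symbol that was not called. For med6, a Mediator subunit gene, the nonsense-mediated decay entry (2.01 CPM on average) had -15.0, whereas its coding entry (23.6 CPM) had 0.60. The pentose phosphate gene rpe had 9.19 under 1 gene identifier (2.35 CPM) and 0.28 under another (39.3 CPM). For the RNA-binding gene stau2 these were -1.03 (40.1 CPM) and 0.05 (219 CPM), and for the collagen lysyl hydroxylase gene plod3 -2.53 (3.75 CPM) and 0.43 (59.6 CPM). Reads may be split between such entries, and the part of this in the values was not tested. The gene aifm5 had -2.28, with effects of -1.81 with B[a]P present and 0.48 alone in the authors' deposited table.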

How the results depend on the processing

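No paired analysis was possible because the table holds no values per library, and leaving out each replicate could not be run for the same reason. The count for Mixture minus B[a]P, 3556, lay between 3105 and 3689 without an abundance limit, at 5 CPM, with other implied variances, after centring, with 1 entry per gene identifier and with coding entries alone. It fell to 1786 with Benjamini-Yekutieli adjustment, 1462 at 2-fold and 566 at 1.5 log2 units. The count for the difference between the diclofenac effects, 10, became 30 with the median of the implied variances and 5 with Benjamini-Yekutieli adjustment. Of 234 named genes called, 194 kept their call under every alternative that tested them, 40 lost it under Benjamini-Yekutieli adjustment, with 5 of the named genes also lost without an abundance limit and 2 after centring, and 0 reversed. The cause of these losses was not tested. Small differences of transcripts near 1 CPM could not be seen, since the median SE there was 0.51.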

Other observations

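Gene families, some with members in the lists, were grouped by the letters that open their symbols, 203 families of at least 10 tested members, and the following were picked after their values were seen, so their counts are a description. Over all symbols tested, 8.64% were called higher and 8.54% lower. Protocadherin genes (pcdh), neuronal adhesion molecules, were lower in Mixture than in B[a]P in 13 of 50 cases and higher in 1 (median -0.60). Among the lower were pcdh1gc6, pcdh1g33 and pcdh1g9, by symbol copies of 1 series, so the 13 count as fewer independent measurements. Voltage-gated sodium channel genes (scn) were lower in 6 of 13 cases and higher in 0, and the ankyrin repeat and SOCS box genes (asb), several of them muscle ubiquitin ligase subunits, in 9 of 18 and 0. Serpin protease inhibitor genes were higher in 5 of 12 cases and lower in 0, adenylate kinase genes (ak) in 4 of 10 and 0, and genes of the her family in 4 of 13 and 0. The 4 her genes were her3 and the numbered copies her4.1, her4.2 and her4.4, so they count as fewer independent measurements.

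Of 2293 pairs of duplicated genes (symbols ending in a and b) with both copies tested, 667 had 1 copy called and 156 had both, 136 in the same direction and 20 in opposite directions. Over all symbols tested, 17.2% were called in either direction, so these counts are a description and were not tested against that share. Besides the muscle pairs in the report, the glycolytic pairs parted: gpia was higher by 1.00 ± 0.26 and gpib lower by -0.63 ± 0.19, and pgam1a was higher by 0.82 ± 0.20 and pgam1b lower by -0.55 ± 0.16. The prolyl hydroxylase gene p4ha1b was higher by 1.34 ± 0.20 and p4ha1a lower by -0.54 ± 0.20. These pairs, too, were chosen after their values were seen, and the pairing goes by symbol, since sequences were not compared.

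Entries of other transcript classes mostly followed the coding entry of their gene where both were called: 18 of 18 retained intron entries, 3 of 4 nonsense-mediated decay entries and 16 of 17 processed transcripts had the same direction. The 2 exceptions were fabp7a, a brain fatty acid binding protein gene, with 1.22 ± 0.42 in its nonsense-mediated decay entry and -0.78 ± 0.20 in its coding entry, and tmem237b, with -1.94 ± 0.69 in its processed transcript and 0.63 ± 0.23 in its coding entry.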
